A study of Homo sapiens with 6 samples.

Results

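The genes described here are the Wnt receptors FZD1, FZD2, FZD6, FZD7, LRP5 and LRP6, the ligand WNT5A and the secreted antagonists DKK1, DKK3 and SFRP1. They were chosen by name, with earlier results of these data known, and all 10 were found by symbol among the 57905 genes of each library's table. Total RNA of U87, a widely used line grown from a human glioma, was sequenced in 3 control libraries (genotype WT, treatment "no") and 3 libraries labelled siRBM47. The siRBM47 libraries carry siRBM47 as both genotype and treatment, and the protocol attached to all libraries gives 100 pmol of siRNA delivered with lipofectamine. The series asks how depletion of RBM47, an RNA-binding protein, changes gene expression. Whether control cells were transfected is unclear, so any effect of transfection and that of the siRNA cannot be told apart. Nothing says that replicates came from separate cultures, and the spread behind each p-value may therefore be technical.

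Wnt proteins are secreted lipid-modified ligands that bind Frizzled receptors on the cell surface. When the co-receptors LRP5 or LRP6 join the complex, the cytoplasmic destruction complex is held back and beta-catenin reaches the nucleus, where it acts with TCF/LEF factors. WNT5A is best known for beta-catenin-independent signalling through Frizzleds and ROR receptors, and in glioma it has been linked to invasion. Dickkopf proteins such as DKK1 block LRP5 and LRP6, and secreted Frizzled-related proteins such as SFRP1 bind the ligands themselves.

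Library facts that bear on these genes are few. Total counts ran from 15575297 to 18128549 per library, and 14578 genes passed the filter on low counts. The unit of all levels is CPM, in which counts are put on 1 library size after TMM scaling. RBM47 itself was at 1.62, 1.73 and 5.75 CPM in control replicates 1 to 3 and at 3.54, 2.74 and 2.23 in siRBM47 replicates 1 to 3, so a fall of the targeted gene was not detected (log2 difference -0.11, SE 0.50, adjusted p = 0.942, edgeR quasi-likelihood test), and directions below are between libraries as labelled. Control replicate 3 stood apart from the other controls, at a correlation of log2 CPM across genes of 0.941 and 0.950 with them against 0.988 between them. Of the glial markers, GFAP (0.339 to 1.49 CPM) and S100B (0 to 0.387) were near 0 and VIM was at 2831 to 4939 CPM. The summed level of 5 neuronal markers was 13.9 to 18.6 CPM in control and 19.2 to 30.5 in siRBM47, most of it SNAP25, with RBFOX3 at 0 to 0.403. For the 3 endothelial markers found, of 4 listed, it was 11.0 to 15.0 and 6.76 to 8.62, most of it KDR, with CDH5 at 0 to 0.0552. VWF did not share the lower level of KDR. Its controls read 0.203, 0.345 and 2.98 CPM, against 2.54, 1.20 and 1.73 for the siRBM47 libraries. These lay above control replicates 1 and 2 and below control replicate 3. The immune (5 markers), epithelial (5) and glial (6) sums overlapped between groups. The part of these markers in the results below was not tested. In such bulk samples fewer cells of a type and less RNA per cell cannot be told apart.

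None of the 9 members that could be tested passed the threshold of 0.05 on the adjusted p (edgeR, all 6 libraries), where 0.22% of all tested genes did (0.0823% higher and 0.137% lower). At an unadjusted p under 0.05 there were 4 members, all higher in siRBM47 (DKK1, WNT5A, FZD1 and FZD6), beside 16.1% of all tested genes at that level (7.15% higher and 8.94% lower). DESeq2 called DKK1 alone and limma-voom called 0, against 4.42% (1.79% higher and 2.63% lower) and 0.233% of all tested genes. With no filter on low counts edgeR called DKK1 and FZD6, both higher, beside 2.97% of all genes (1.2% higher). The 2 groups of libraries did not overlap for 4 of the 9 members, beside 22.6% of all tested genes (11.6% higher and 11% lower). DKK1, FZD1 and FZD6 were the 3 higher ones and FZD2 the lower one. The median log2 difference of the 9 was 0.61, with 7 positive and 2 negative, beside -0.01 over all tested genes. Because the members were chosen with earlier results of these data known, these counts and this median are descriptions only.

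Single libraries decided these calls. Without control replicate 3, edgeR called 5 of 9 members, all higher (DKK1, DKK3, WNT5A, FZD1 and FZD6), beside 21.2% of all tested genes called in that fit (9.97% higher and 11.2% lower). DESeq2 called the same 5 and LRP6, and limma-voom the same 5, beside 3371 and 3129 genes over all those tested. The control arm of these fits is replicates 1 and 2, the pair of libraries within a group with the smallest difference in counts (chi-square per degree of freedom 10.7). Leaving out any other library gave 0 members by edgeR and 0 by limma-voom, beside 0 to 18 and 0 to 15 of all tested genes. At an unadjusted p under 0.05 by edgeR there were 2 to 5 members, beside 1443 to 1874 genes of the 14945 to 14984 tested. DESeq2 kept DKK1 without control replicate 1, beside 228 of all genes. It gave 0 members without each of the others, beside 148 to 347 of all genes.

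**Figure D1:**
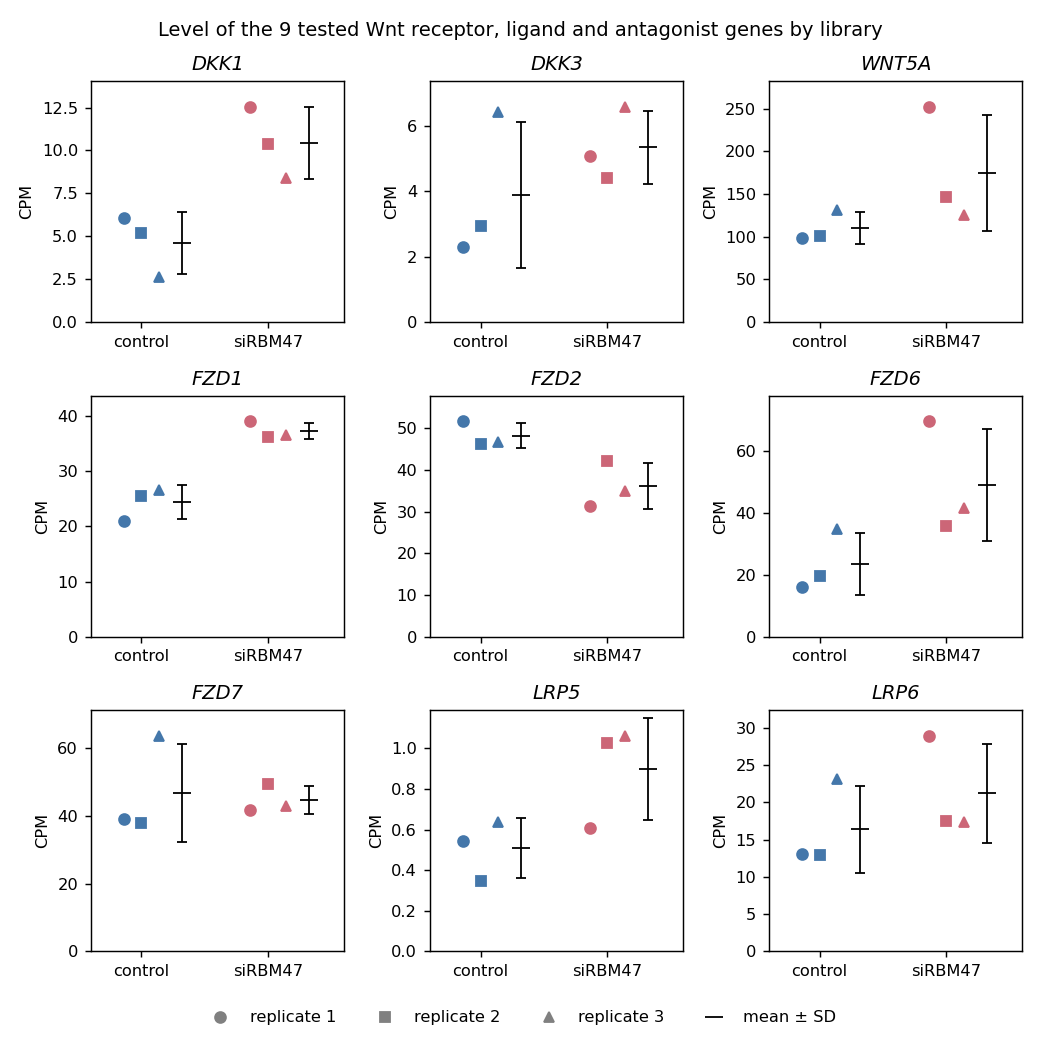
Level in CPM (vertical axes, from 0) of the 9 tested members in each library, with replicates as separate symbols and the group mean ± SD (n = 3) beside them. The 3 siRBM47 libraries lie above all controls for DKK1, FZD1 and FZD6 and below them for FZD2, and control replicate 3 lies above the other controls for DKK3, FZD6, FZD7 and LRP6 and below them for DKK1.

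Promoter sequences are shown for the members with an unadjusted p under 0.05 that have one in the RefSeq table (GRCh38.p14), because these were higher in the same libraries. The table matched 4 of the 10 members by symbol, WNT5A with 2 starts. Each sequence runs 5′ to 3′ on the gene's strand and ends before the annotated start. DKK1 is at chr10:52314031-52314280 (plus strand), the second WNT5A start at chr3:55481399-55481648 (minus) and FZD1 at chr7:91264183-91264363 (plus), the last shortened to stay outside the exon of GENCODE release 29. The first WNT5A window lies within a WNT5A exon and is not shown. Capitals mark matches, on either strand, to the TCF/LEF core CTTTGA, the AP-1 site TGACTCA, the GC box GGGCGG and the TATA box TATAAA.
DKK1: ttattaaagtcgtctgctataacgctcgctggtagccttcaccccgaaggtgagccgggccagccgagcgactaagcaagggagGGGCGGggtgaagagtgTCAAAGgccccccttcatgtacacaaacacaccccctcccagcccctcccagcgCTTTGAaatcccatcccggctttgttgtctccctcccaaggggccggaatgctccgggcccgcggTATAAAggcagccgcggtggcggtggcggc
WNT5A: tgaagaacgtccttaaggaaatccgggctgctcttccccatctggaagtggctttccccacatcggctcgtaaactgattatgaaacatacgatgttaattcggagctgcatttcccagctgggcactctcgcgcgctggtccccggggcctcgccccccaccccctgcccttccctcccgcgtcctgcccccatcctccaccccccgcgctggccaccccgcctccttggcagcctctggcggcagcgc
FZD1: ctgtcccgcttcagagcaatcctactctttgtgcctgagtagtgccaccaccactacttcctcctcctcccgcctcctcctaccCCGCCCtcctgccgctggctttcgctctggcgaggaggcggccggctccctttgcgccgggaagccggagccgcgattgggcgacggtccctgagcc
The DKK1 window holds the TCF/LEF core on both strands, beginning at positions -149 and -95 relative to the RefSeq start, with a GC box at -166 and a TATA box at -30. No match overlaps another. FZD1 has a GC box at -166 relative to its RefSeq start. That start follows the full window of 250 bases and not the end of the shortened stretch shown. The WNT5A window shown has none of the 4 motifs. Over all 35116 windows of 250 bases in the table (the FZD1 stretch is shorter), 11.2% hold the TCF/LEF core, 4.2% the AP-1 site, 42.6% the GC box and 10.7% the TATA box. A match is a description of letters and not a binding site.

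DKK1, the LRP5/6 antagonist and itself a known target of beta-catenin, had the largest log2 difference of the tested members with all 6 libraries. Its level was 6.09, 5.18 and 2.61 CPM in control replicates 1 to 3, from 90, 90 and 49 counts. In siRBM47 replicates 1 to 3 it was 12.5, 10.4 and 8.38 CPM, from 227, 182 and 150 counts. Every siRBM47 library lay above every control, and control replicate 3 was the lowest of all. The means were 4.63 ± 1.81 and 10.4 ± 2.08 CPM (SD, n = 3). This is a 2.26-fold higher level (log2 1.18, SE 0.34, adjusted p = 0.146, edgeR), and 1.89% of all tested genes had a larger log2 difference. DESeq2 gave 1.18 with an adjusted p of 0.0308. Without control replicate 3 the difference was 0.89 (adjusted p = 0.0209, edgeR), below those of FZD6 (1.45), DKK3 (1.03) and LRP5 (1.02) in that fit. DKK1 (ENSG00000107984) lies on chromosome 10, 52314296 to 52318042, and PRKG1-AS1, on the other strand, covers 9.6% of its exons and the promoter window above. Since the library kit does not record strand, reads there cannot be assigned to either gene.

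DKK3, a divergent Dickkopf that is often silenced in tumours, had 2.30, 2.93 and 6.44 CPM in the controls against 5.08, 4.40 and 6.59 in the siRBM47 libraries. Control replicate 3 lay within the siRBM47 range and the other 2 controls below it. Its log2 difference was 0.45 (SE 0.40, adjusted p = 0.618, edgeR), and without control replicate 3 it was 1.03 (adjusted p = 0.029, edgeR). DKK3 (ENSG00000050165) is on chromosome 11, 11963106 to 12009769, minus strand.

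SFRP1, a secreted Frizzled-related protein that is frequently silenced by methylation in cancers, was almost without counts and could not be tested. It had 2 counts in control replicate 1, 1 in siRBM47 replicate 3 and 0 in the other 4 libraries. A count of 0 allows up to 3 counts, which is 0.160 to 0.173 CPM in those 4 libraries. A difference between groups was not detectable at this depth.

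WNT5A was among the more abundant of all tested genes in CPM, above 91.2% of them. Controls had 98.5, 101 and 131 CPM (replicates 1 to 3), and siRBM47 libraries had 252, 146 and 126 CPM. The groups overlapped, since siRBM47 replicate 3 lay under control replicate 3, and siRBM47 replicate 1 was far above the rest. The means were 110 ± 18.2 and 175 ± 67.8 CPM (SD, n = 3). The 1.58-fold difference (log2 0.66, SE 0.27, unadjusted 95% interval 0.05 to 1.27) had an adjusted p of 0.274 (edgeR). In log2 it was 0.30 (adjusted p = 0.588, edgeR) without siRBM47 replicate 1 and 0.81 (adjusted p = 0.0288, edgeR) without control replicate 3. WNT5A (ENSG00000114251) is on chromosome 3, 55465715 to 55490539, minus strand.

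FZD1, a receptor that couples to beta-catenin signalling, showed the least scatter of the members that were higher. Its level was 20.9, 25.6 and 26.7 CPM in the controls and 39.0, 36.2 and 36.6 CPM under siRBM47. The gap between the groups was wider than the spread within either. The difference was 1.53-fold (log2 0.61, SE 0.18, 95% interval 0.20 to 1.02, adjusted p = 0.161, edgeR), and it stayed between 0.53 and 0.68 when any 1 library was left out. FZD1 (ENSG00000157240) is a gene with 1 exon on chromosome 7, 91264364 to 91271326.

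FZD2, a close relative of FZD1 and a receptor for WNT5A, was the only tested member with non-overlapping groups that was lower. The controls had 51.6, 46.2 and 46.6 CPM and the siRBM47 libraries 31.3, 42.0 and 34.9. Controls lay close together, control replicate 3 included, and siRBM47 replicate 1 was the lowest library. The log2 difference was -0.42 (SE 0.19, 95% interval -0.84 to 0.00, adjusted p = 0.313, edgeR), and it did not pass in any of the sets of libraries or tools tried. FZD2 (ENSG00000180340), chromosome 17, 44557459 to 44559570, shares 2.67% of the 50-base stretches of its transcript with FZD1, FZD7 or FZD5, so few reads could be split between these paralogs.

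FZD6, a Frizzled known for planar cell polarity and for restraining beta-catenin signalling, was at 16.2, 19.6 and 34.9 CPM in control. In siRBM47 it was at 69.5, 35.9 and 41.4 CPM. The groups were separate by a narrow margin, between control replicate 3 at 34.9 and siRBM47 replicate 2 at 35.9 CPM. The level was 2.08-fold higher (log2 1.05, SE 0.34, adjusted p = 0.183, edgeR), and 2.69% of all tested genes had a larger one. In log2 it was 1.45 (adjusted p = 0.00199, edgeR) without control replicate 3 and 0.72 (adjusted p = 0.456, edgeR) without siRBM47 replicate 1. FZD6 (ENSG00000164930) is on chromosome 8, 103298433 to 103332866, and BAALC-AS1 on the other strand covers 3.4% of its exons.

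FZD7, the third member of the FZD1 and FZD2 subfamily and a receptor linked to stem-like tumour cells, was nearly level between the groups. Controls were at 39.0, 37.9 and 63.6 CPM, siRBM47 libraries at 41.7, 49.4 and 43.0. Control replicate 3 was the highest of all 6 libraries. In log2 the difference was -0.07 (SE 0.23, 95% interval -0.59 to 0.46, adjusted p = 0.918, edgeR), an interval that holds ratios from 0.663 to 1.37, and it turned to 0.22 without control replicate 3. FZD7 (ENSG00000155760) is on chromosome 2, 202034587 to 202038445.

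Of the co-receptors, LRP6 was the one measured with some depth. Its controls read 13.1, 12.9 and 23.1 CPM and its siRBM47 libraries 28.9, 17.4 and 17.3. One library in each group was high, control replicate 3 and siRBM47 replicate 1, and the groups overlapped. LRP6 differed by 0.37 in log2 (SE 0.31, adjusted p = 0.584, edgeR), by 0.09 without siRBM47 replicate 1 and by 0.71 (adjusted p = 0.0522, edgeR) without control replicate 3. LRP6 (ENSG00000070018) lies on chromosome 12, 12116025 to 12267012, minus strand.

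LRP5, the paralog of LRP6, had 74 counts in all 6 libraries together. The controls had 0.542, 0.345 and 0.639 CPM (8, 6 and 12 counts) and the siRBM47 libraries 0.608, 1.03 and 1.06 (11, 18 and 19 counts). The exact Poisson 95% intervals, which cover counting error only, overlapped between every pair of libraries, from 0.127 to 0.752 CPM for the lowest and from 0.639 to 1.66 for the highest. At 0.81 in log2 (SE 0.48, adjusted p = 0.445, edgeR), the difference was not distinguishable from error at this depth. LRP5 (ENSG00000162337) is on chromosome 11, 68312609 to 68449275.

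**Figure D2:**
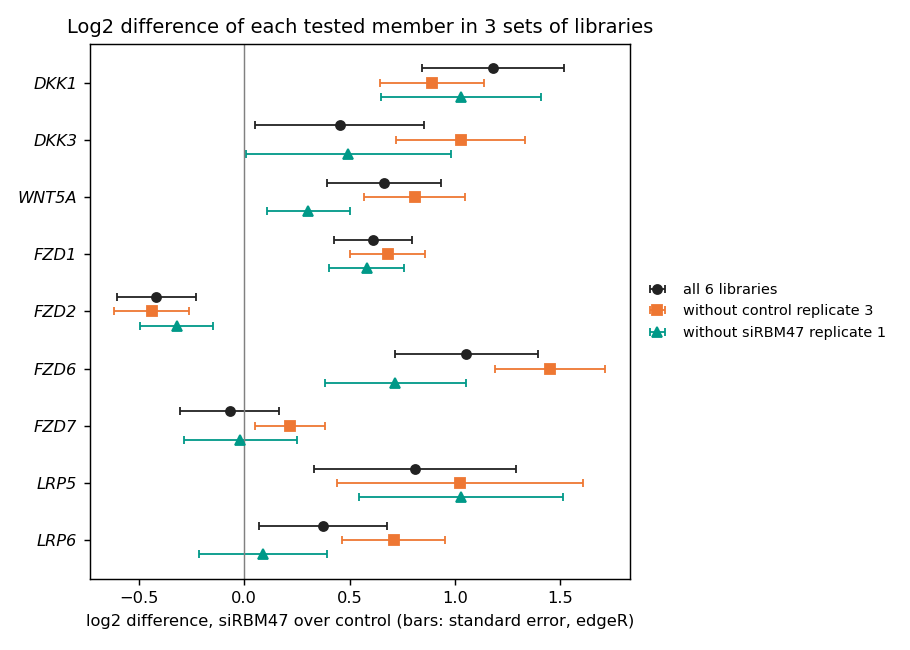
Log2 difference of siRBM47 over control (horizontal axis) for each tested member, with the edgeR standard error as bars, in all 6 libraries, without control replicate 3 and without siRBM47 replicate 1. WNT5A runs from 0.30 to 0.81 and FZD6 from 0.72 to 1.45 across these sets, FZD1 from 0.58 to 0.68, and FZD7 changes sign.

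Control replicate 3 was compared with the mean of the other 2 controls in log2 CPM (prior count of 2). The median absolute difference over all tested genes was 0.49, and 5 of the 9 members went beyond it. DKK3 (1.27), FZD6 (0.97), LRP6 (0.83) and FZD7 (0.72) were higher in that library and DKK1 (-1.07) was lower. WNT5A, FZD1, LRP5 and FZD2 were within it, at 0.40, 0.21, 0.46 and -0.07. That library lay towards the siRBM47 level for DKK3, FZD6 and LRP6 and away from it for DKK1. Without this library the groups did not overlap for any of the 9 members, beside 53.9% of all tested genes.

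Levels of different genes were compared as CPM per kb of the gene length used in counting. In control the order of the mean levels was FZD2 (24.1 ± 1.5), WNT5A (16.4 ± 2.71), FZD7 (12.1 ± 3.74), FZD6 (5.75 ± 2.43), FZD1 (5.58 ± 0.697), DKK1 (2.08 ± 0.814), LRP6 (1.57 ± 0.562), DKK3 (0.764 ± 0.438) and LRP5 (0.0819 ± 0.0241) CPM per kb (SD, n = 3). Libraries of neighbours overlapped for WNT5A and FZD7, for FZD6 and FZD1, for DKK1 and LRP6 and for LRP6 and DKK3, and were separate for the other neighbours. In siRBM47 it was WNT5A (26.0 ± 10.1), FZD2 (18.1 ± 2.74), FZD6 (12.0 ± 4.41), FZD7 (11.5 ± 1.06), FZD1 (8.53 ± 0.344), DKK1 (4.70 ± 0.937), LRP6 (2.04 ± 0.639), DKK3 (1.05 ± 0.220) and LRP5 (0.145 ± 0.0408) CPM per kb. There the first 4 overlapped from each to the next and the remaining neighbours were separate. WNT5A thus stood second in control, below every control library of FZD2. In siRBM47 it stood first, within the overlap of its libraries with those of FZD2.

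The 4 Frizzled genes named above made up most of the Frizzled transcript level of these cells. FZD3, FZD4, FZD5 and FZD8 were each at most 2.52% of the summed level of FZD1 to FZD10 per kb in every library, and FZD9 and FZD10 had 0 counts. The sum was 47.7, 46.5 and 57.0 CPM per kb in control and 54.7, 53.2 and 49.3 in siRBM47, or 50.4 ± 5.74 and 52.4 ± 2.79 (SD, n = 3), with overlapping groups. Its composition was less alike. FZD2 took 54.2%, 49.7% and 41.0% in control and 28.6%, 39.5% and 35.5% in siRBM47. FZD6 took 8.29%, 10.3% and 14.9% in control against 31.1%, 16.5% and 20.5%, and FZD1 10.0%, 12.6% and 10.7% against 16.3%, 15.6% and 17.0%. Shares of these 3 genes did not overlap between the groups, while that of FZD7 did, at 21.0% to 28.8% in control and 19.7% to 23.9% in siRBM47. In siRBM47 replicate 1 the share of FZD6 was above that of FZD2, and in the other 5 libraries FZD2 was first. Shares of 1 sum are not independent, and no test was made on them. The length used in counting FZD1 was 4.37 kb, against 6963 bases in GENCODE release 29, and with the latter its mean share was 7.48% in control and 11.1% in siRBM47.

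**Figure D3:**
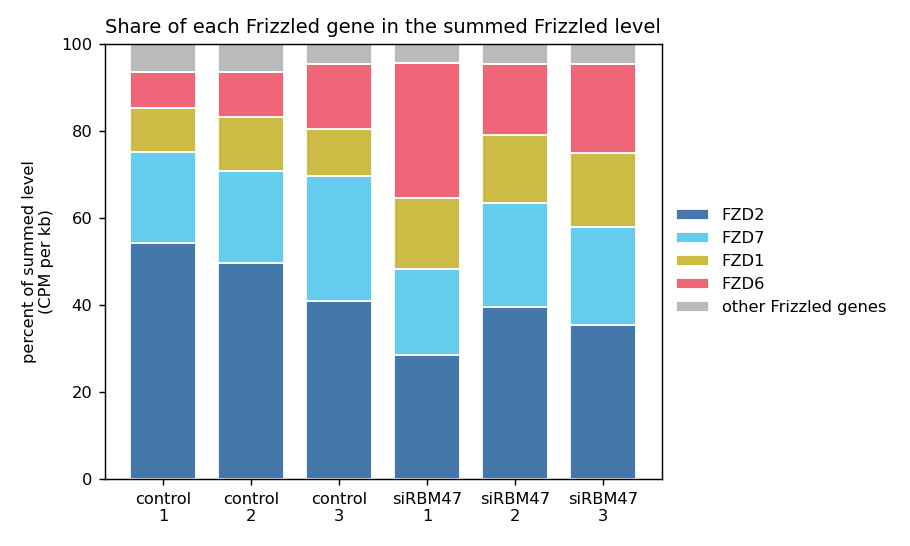
Share of each Frizzled gene, in percent of the summed CPM per kb of FZD1 to FZD10 (vertical axis), in each library (horizontal axis), with FZD3, FZD4, FZD5, FZD8, FZD9 and FZD10 drawn together. FZD2 takes 41.0% or more in each control and 39.5% or less in each siRBM47 library, and FZD1 and FZD6 take larger shares there.

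The other genes of the pathway were read in the same fit, from 84 genes in 9 lists, of which 54 could be tested and 14 had no count in any library. By edgeR 0 of the 54 passed, beside 0.22% of all tested genes, with 4 higher and 6 lower at an unadjusted p under 0.05, beside 7.15% and 8.94% of all tested genes. DESeq2 called 2 and limma-voom 0, beside 4.42% and 0.233%. Their median log2 difference was 0.06, with 28 positive and 26 negative, beside -0.01 over all tested genes. Groups did not overlap for 12 of the 54, near the background of 22.6%. Without control replicate 3, edgeR called 14 of the 54 (10 higher and 4 lower), beside 21.2% of all tested genes. Of the genes named below, WNT5B, ROR1, LGR4, SOST and TNFRSF19 were higher and WNT2B, DVL1, DVL2 and AXIN1 lower in that fit.

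Among other ligands and their secretion factors, 7 of 20 were tested and the median was 0.12. WNT5B, the paralog of WNT5A, read 19.0, 17.7 and 40.6 CPM in the controls against 39.8, 49.4 and 49.2 (log2 difference 0.84, adjusted p = 0.239, edgeR). WNT2B was at 0.692 to 1.62 CPM in control and 0.279 to 0.686 in siRBM47 (-1.5, adjusted p = 0.222, edgeR), from 5 to 27 counts a library, and 21.2% of its exons lie opposite another gene, ST7L. The other 4 Frizzleds tested all had negative differences, with a median of -0.34. Named by smallest p were FZD5 (-0.44, adjusted p = 0.422) and FZD8 (-0.48, adjusted p = 0.624, edgeR).

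Receptor tyrosine kinases and relatives that bind WNT5A gave 3 tested genes of 4, with a median of 0.20. ROR1 read 0.406, 0.863 and 3.73 CPM in the controls against 4.03, 3.14 and 3.02 (log2 difference 1.0, adjusted p = 0.482, edgeR), so control replicate 3 lay within the siRBM47 range. RYK differed by 0.20 (adjusted p = 0.716, edgeR). Of the genes of receptor turnover, 6 of 9 were tested, with a median of 0.15. The ubiquitin ligase RNF43, which removes Frizzleds from the membrane, read 1.76, 3.34 and 7.40 CPM in the controls against 1.66, 2.23 and 1.56 (-1.20, adjusted p = 0.278, edgeR), but 59.5% of its exon bases are shared with other genes on its own strand. LGR4, a receptor for R-spondins, read 29.2, 40.0 and 120 CPM in the controls against 95.9, 68.7 and 77.5 (0.35, adjusted p = 0.740, edgeR).

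Among 6 tested antagonists of 12, with a median of 0.25, was SOST, sclerostin, another LRP5/6 blocker. It had 0, 0 and 4 counts in control and 15, 19 and 13 in siRBM47, with separate groups at a very low level (adjusted p = 0.117, edgeR). KREMEN1, a receptor through which DKK1 acts, differed by -0.31 (adjusted p = 0.438, edgeR). Downstream of the receptors, 9 of 11 genes of Dishevelled and planar polarity were tested, with a median of -0.02. The Dishevelled gene DVL1 read 209, 207 and 134 CPM in the controls against 78.5, 112 and 105 (log2 difference -0.89, SE 0.23, adjusted p = 0.119, edgeR). DVL2 differed by -0.59 (adjusted p = 0.278, edgeR). DVL1 fell by DESeq2.

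Of the destruction complex, AXIN1 was at 27.4, 28.1 and 20.3 CPM against 16.6, 19.6 and 15.9 (-0.54, adjusted p = 0.258, edgeR) and GSK3A differed by -0.33 (adjusted p = 0.532, edgeR), while the median of the 7 genes was 0.12. The 7 tested nuclear factors of 8 had a median of -0.25, with BCL9 at -0.55 (adjusted p = 0.222) and TCF7 at 0.47 (adjusted p = 0.271, edgeR). Of 7 target genes of beta-catenin 5 were tested, with a median of -0.01. TNFRSF19 read 3.05, 3.63 and 7.82 CPM in the controls against 10.7, 9.37 and 12.3 (1.15, SE 0.36, adjusted p = 0.173, edgeR) and rose by DESeq2. MYC was at 62.4, 70.0 and 169 CPM against 54.9, 73.9 and 71.2 (-0.59, adjusted p = 0.450, edgeR).

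**Figure D4:**
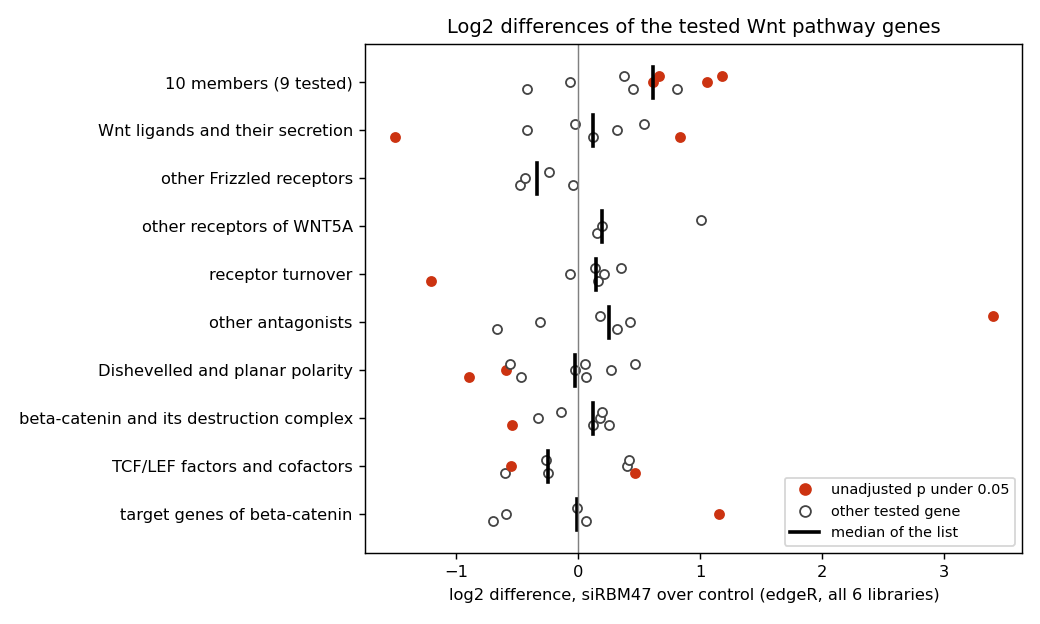
Log2 difference of siRBM47 over control (horizontal axis, edgeR, all 6 libraries) for each tested gene of the 10 members and of 9 other pathway lists, with filled points at an unadjusted p under 0.05 and a bar at each list's median. The median is 0.61 for the members and between -0.34 and 0.25 for the other lists, and no point passed the adjusted threshold. Members and lists were chosen with earlier results of these data known, so the medians are descriptions only.

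For WNT5A and DKK1 the genes of the most similar profile over the 6 libraries were looked up among genes whose log2 CPM averaged 3 or more. Those nearest to WNT5A by Pearson correlation of log2 CPM were HECTD2, BPNT2 and TUG1 (r = 0.994 each), and 328 of 9644 genes had r over 0.9. For DKK1 they were CBX5, WASHC3 and CRKL (r = 0.996 each), and 266 of 9645 genes had r over 0.9. With 6 libraries that share the same grouping such values are common, and they are given as a description.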

How the data were processed

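Reads were processed on hg38 with HISAT2 2.0.5 and featureCounts 1.5.0-p3, per the submitters' processing notes; annotation, strand setting and filters: not given in the sources used here. Each deposited table gives 1 library, as raw counts and as FPKM, per the file headers. The deposited counts were tested with edgeR 4.0.16 (R 4.3.3, quasi-likelihood, TMM, filterByExpr with a minimum count of 10, no block, Benjamini-Hochberg adjustment over 14578 genes). The authors' FPKM, which scale counts by gene length and library, served only to recover gene lengths. DESeq2 1.42.0, limma-voom (limma 3.58.1), other scaling factors and filters, a replicate block and leaving out each library were alternatives. The standard error is the absolute log2 difference over the square root of F. Pairs of libraries within a group differed by a chi-square per degree of freedom of 10.7 to 145, so none was counted as a repeat. The edgeR step was also run on simulated data. These held no outlying library like control replicate 3, so that run does not bear on how this library moved the calls. Gene symbols were matched by Ensembl identifier, and positions and overlaps from GENCODE release 29 (GRCh38).

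Members and lists were chosen with earlier results of these data known. Named were all 10 members, in each other list the genes past the threshold or else the 2 with the smallest p, and 3 genes of similar profile for WNT5A and for DKK1 (log2 CPM with a prior count of 2).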

Additional observations from a re-analysis of the deposited data

How the results depend on the processing

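Over all genes edgeR called 32 (12 higher, 20 lower), against 644 by DESeq2, 804 with no filter and 0 to 3156 when 1 library was left out. The 3156 came without control replicate 3. The value was 18 and 12 without control replicates 1 and 2, and 0 without siRBM47 replicate 1, 2 or 3, beside 1838, 1874 and 1494 whose unadjusted p was under 0.05. There DESeq2 called 347, 275 and 148 and limma-voom 0, in fits chosen after seeing the data. Of the members 1 (DKK1) was called by DESeq2, 2 (DKK1 and FZD6) with no filter, where 2.97% of all genes were called, and 0 to 5 with 1 library left out. For the other pathway genes it was 2 by DESeq2, 4 with no filter and 0 to 14 with 1 library left out. Members with non-overlapping groups numbered 4 to 9 with 1 library left out. The 9 came without control replicate 3, where 53.9% of all tested genes did not overlap, and the others gave 4 or 5, beside 26.6% to 32.8%. Of 116 pairs of a member and an alternative, 107 kept direction and side of the threshold, 8 passed it and 1 reversed, FZD7, which ran from -0.19 to 0.22 with 1 library left out and was positive without control replicate 3. LRP5 dropped out at a minimum count of 50. RBM47 reversed to 0.10 by limma-voom, 0.12 with the replicate block, and with 1 library left out it ran from -0.38 to 0.76, positive without control replicate 3 (0.76) and without siRBM47 replicate 3 (0.04). Unscaled by length, the mean share of FZD1 was 14.7% in control and 19.9% in siRBM47 and that of FZD2 29.3% and 19.4%, and with annotated lengths that of FZD1 was 7.48% and 11.1%.

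Replicate numbers are shared between the groups, but same-numbered libraries deviated together at r = -0.04, 0.13 and 0.12, and control replicate 1 correlated best with siRBM47 replicate 2, so the numbers are not taken as pairs. With the replicate block 39 genes, 0 members and 0 other pathway genes passed. Depth limits SFRP1 and LRP5.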

Other observations

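Some other pathway genes, singled out after their values were seen, were also far from the other controls in control replicate 3. The R-spondin receptor LGR4 was at 120 CPM there against 29.2 and 40.0, MYC at 169 against 62.4 and 70.0 and ROR1 at 3.73 against 0.406 and 0.863. In the siRBM47 libraries LGR4 ran from 68.7 to 95.9 CPM, between control replicate 3 and the other 2 controls. ROR1 ran from 3.02 to 4.03, around control replicate 3, and MYC from 54.9 to 73.9, around the other 2 controls.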
